A study of Mus musculus with 6 samples.

Results

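A set of 5 CXC chemokine ligand genes (Cxcl1, Cxcl2, Cxcl3, Cxcl10 and Cxcl16) and 5 chemokine receptor genes (Cxcr2, Cxcr4, Ccr1, Ccr2 and Cx3cr1) were followed in leukemia stem cells of the mouse. They were chosen by symbol, and all 10 were present among the 53735 genes of the deposited table. Leukemia stem cells are the fraction of a leukemia that can start the disease again. They had been taken, with no treatment given, from male C57 mice on day 13 after leukemia cells were transplanted, 3 libraries from bone marrow and 3 from liver. All 6 libraries thus came from mice carrying the transplanted leukemia, and no healthy cells were compared. Driver genes of the leukemia and surface markers for sorting are not named in the sources used here. Libraries were made from small RNA amounts by template switching and tagmentation, without strand information.

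Chemokines are small secreted proteins that steer leukocytes along gradients through receptors coupled to G proteins. CXCL1, CXCL2 and CXCL3 bind CXCR2 and recruit neutrophils, CXCL10 is an interferon-induced ligand of CXCR3, and CXCL16 is a membrane-bound ligand of CXCR6 that can be shed. CXCR4 holds hematopoietic cells in the bone marrow through stromal CXCL12, CCR2 lets monocytes leave the marrow, CCR1 binds several inflammatory CC chemokines, and CX3CR1 is a receptor of monocytes and their descendants for CX3CL1.

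The promoters of the ligands are shown because Cxcl1, Cxcl2 and Cxcl3 lie in 1 cluster on chromosome 5 and carry 1 motif in common, while their transcript levels were far apart. Sequences are those of RefSeq on GRCm38.p6, in which 9 of the 10 genes had a promoter entry running from 250 bases before to 50 after the gene's start. Windows were searched on both strands for GGG, any 2 bases and TTTCC, a form of the NF-kB site, and for GAAA, any 2 bases and GAAA, a form of the interferon-stimulated response element (ISRE). Capitals mark the matches, which did not overlap each other. For Cxcl1, Cxcl2 and Cxcl3 the stretch runs from 120 to 31 bases before the start, and for Cxcl10 from 250 to 151 bases before it.
Cxcl1 (chr5:90891125-90891214, plus strand): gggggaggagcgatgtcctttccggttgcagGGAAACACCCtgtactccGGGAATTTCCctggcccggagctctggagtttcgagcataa
Cxcl2 (chr5:90903779-90903868, plus strand): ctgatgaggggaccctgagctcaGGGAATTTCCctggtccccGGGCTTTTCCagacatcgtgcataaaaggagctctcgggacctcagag
Cxcl3 (chr5:90785981-90786070, plus strand): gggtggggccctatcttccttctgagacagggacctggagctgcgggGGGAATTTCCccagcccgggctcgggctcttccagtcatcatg
Cxcl10 (chr5:92349040-92349139, minus strand): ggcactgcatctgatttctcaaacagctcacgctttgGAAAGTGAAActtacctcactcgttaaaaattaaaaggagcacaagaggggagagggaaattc

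The 10 letters GGGAATTTCC stood in the promoters of these 3 clustered genes, 71, 97 and 73 bases before the RefSeq start of Cxcl1, Cxcl2 and Cxcl3. Of all 32851 promoter windows 29 held these exact letters (0.0883%), and 535 held the NF-kB form on either strand (1.63%). A second match stood in Cxcl1 and in Cxcl2. Gene positions given further below are those of GENCODE M21, where Cxcl2 starts upstream of its RefSeq start, at 90903871. Distances counted from that start would be shorter for Cxcl2. The Cxcl10 window held GAAAGTGAAA 213 bases before the start, as a match to the ISRE form that 1131 of the windows carried (3.44%). No match to either motif was found in the windows of Cxcr2, Cxcr4, Ccr1, Ccr2 and Cx3cr1. The Cxcl10 window held no match to the NF-kB form used. Other forms of either site were not searched for, so a window without a match may still hold one of those. A match is a description of the letters and not evidence of binding.

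Bone marrow libraries held 15.4 to 18.5 M reads and liver libraries 9.73 to 13.8 M. Since the labels speak of technical replicates and of no separate animals, a p-value here reflects the spread among these 6 libraries alone. Every library is labelled male, yet Xist, the RNA of the inactive X chromosome, stood between 2425 and 6229 normalized counts in the 4 libraries of replicates 1 and 3 and at 4.28 or below in replicate 2. A sum over Eif2s3y, Uty, Kdm5d and Ddx3y, which lie on the Y chromosome, was 145, 2987 and 1553 in bone marrow replicates 1, 2 and 3 and 0, 2675 and 1634 in liver, so that replicate 3 lay between the others on both measures. In each tissue replicates 1 and 2 thus differed in sex-linked transcripts and do not look like repeat libraries of 1 cell sample. Over all genes tested, replicate 3 lay between replicates 1 and 2 for 43.7% in bone marrow and 50.9% in liver. Whether replicate 3 is independent of replicates 1 and 2 was not tested, and results are also given without it. The progenitor and leukemia genes Kit, Cd34, Flt3, Ly6a, Hoxa9 and Meis1 were read in every library, at a sum of 8931 to 9654 normalized counts (bone marrow) and 7801 to 8105 (liver). The hepatocyte genes Alb, Ttr and Fgb, the Kupffer cell genes Clec4f, Vsig4 and Cd5l and the endothelial gene Cdh5 had 0 reads in all 6. Other genes of these lists were read in both tissues, among them Apoa1 at 2285 to 5659, Apoa2 at 4.28 to 25.3, Pecam1 at 343 to 1393 and C1qc at 1.20 to 17.1 normalized counts.

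The question put to these genes was whether leukemia stem cells in the liver carry other levels of chemokine and homing receptor transcripts than those in bone marrow. Cxcl2 and its receptor gene Cxcr2 were higher in liver and Cx3cr1 was lower, while Cxcr4, Ccr1 and Ccr2 did not pass the test. Levels are normalized counts, which are reads divided by 1 size factor per library. Of the 10 genes 7 had an average of 10 or more normalized counts, the filter used, and were tested with limma on log2(normalized count + 1), and 3 of them passed at an adjusted p under 0.05. Over all 14298 genes tested 145 passed (1.01%), 60 higher (0.42%) and 85 lower in liver (0.594%). On recovered reads edgeR called the same 3 genes (0.944% of all genes) and DESeq2 called these and Cxcl10 (4.35% of all genes). The tissues did not overlap for 4 of the 10 genes, Cxcl2, Cxcl10 and Cxcr2 above (11.4% of all genes tested) and Cx3cr1 below (10.9%), against 22.3% in either direction. At an unadjusted p under 0.05 these 4 genes passed, as did 15.7% of all genes tested. With 1 library left out, 11, 17 and 6 of all genes passed without bone marrow replicates 1, 2 and 3. Without liver replicates 1, 2 and 3 the numbers were 427, 86 and 8, and without both replicate 3 libraries 2. Calls kept or lost in these fits, given below, are to be read beside those numbers. In bulk RNA, fewer cells of a type and less RNA per cell cannot be told apart.

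**Figure D1:**
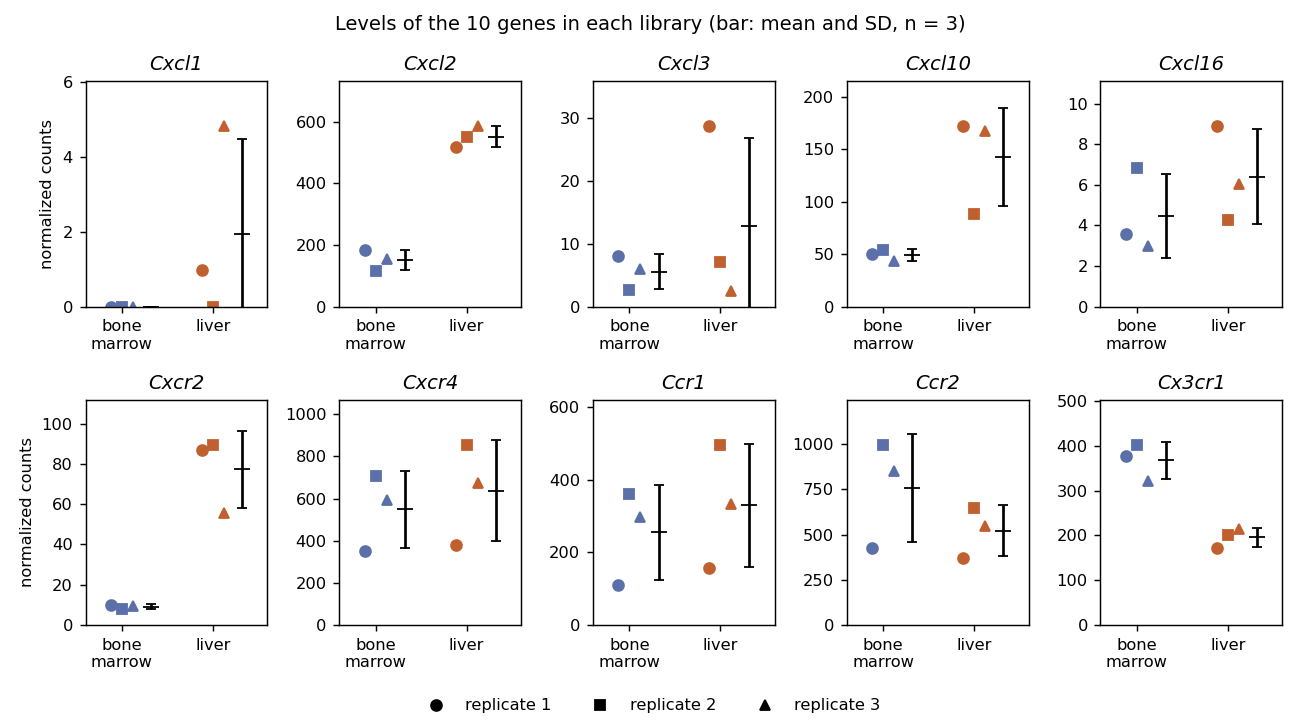
Normalized counts (vertical axes, from 0, own scale per gene) of the 10 genes in the 3 bone marrow (blue) and 3 liver (orange) libraries, with the replicate number as the marker shape and the mean and SD beside the points (bars stop at 0). Liver lies wholly above bone marrow for Cxcl2, Cxcl10 and Cxcr2 and wholly below for Cx3cr1, and replicate 1 is the lowest of both tissues for Cxcr4, Ccr1 and Ccr2.

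Cxcl2 (chromosome 5, 90903871 to 90905938, plus strand, GRCm38) was the most abundant of the 5 ligand transcripts per length in both tissues. It stood at 182, 116 and 155 normalized counts in bone marrow replicates 1, 2 and 3 and at 517, 551 and 585 in liver. The lowest liver library was thus well above the highest bone marrow library, and the liver libraries lay close together. The means were 151 ± 33.0 and 551 ± 34.3 (SD, n = 3 each), and the log2 fold change was 1.88 ± 0.17 (SE, limma adjusted p = 0.010). The values rest on 547 and 1397 reads. The call was lost without bone marrow replicate 3 (limma adjusted p = 0.095) and without liver replicate 3 (0.11), where the log2 fold change was 1.91 and 1.84. Without both replicate 3 libraries it was 1.87 (limma adjusted p = 0.74).

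Cxcl1 and Cxcl3, ligand genes of the same cluster, were close to the detection limit. Cxcl1 (chromosome 5, 90891241 to 90893115) had 0 reads in the 3 bone marrow libraries and 1, 0 and 4 in liver replicates 1, 2 and 3. The 95% counting intervals of the means, 0 to 1.02 (bone marrow) and 0.628 to 4.52 normalized counts (liver), overlapped, and 4 of the 5 liver reads lay in 1 library. Cxcl3 (chromosome 5, 90786103 to 90789600) stood at 8.08, 2.57 and 5.95 normalized counts in bone marrow and at 28.7, 7.11 and 2.41 in liver. Of its 36 liver reads 29 came from replicate 1, and the tissues overlapped. Neither gene passed the filter. With no filter on low values their limma adjusted p was 0.58 and 0.79.

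Cxcl10 (chromosome 5, 92346638 to 92348889, minus strand) did not pass the test, although its tissues did not overlap. Bone marrow libraries held 50.3, 53.9 and 43.1 normalized counts and liver libraries 172, 88.1 and 167. Liver replicate 2 was the low one of the liver group and still above every bone marrow library. The log2 fold change was 1.46 ± 0.29 (SE, limma adjusted p = 0.072), with a 95% interval of 0.78 to 2.14. Without liver replicate 2 it was 1.77 (limma adjusted p = 0.030, with 0.602% of all genes called), and DESeq2 on the recovered reads gave 1.54 (adjusted p = 4.5e-04). Exon bases of Cxcl10 are shared with Art3 on the other strand, a gene that held 3.43 to 8.98 (bone marrow) and 4.26 to 21.7 normalized counts (liver).

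Cxcl16 (chromosome 11, 70453983 to 70459984, minus strand) was barely read. It stood at 3.59, 6.85 and 2.97 normalized counts in bone marrow and 8.89, 4.26 and 6.02 in liver, from 16 and 17 reads. The tissues overlapped and the gene did not pass the filter (limma adjusted p = 0.79 with no filter). Part of its exon bases is shared with Zmynd15 on the other strand. Adam10 and Adam17, the proteases that shed CXCL16 and CX3CL1, had means of 2675 and 966 in bone marrow and of 2719 and 941 normalized counts in liver, and neither passed.

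Cxcr2 (chromosome 1, 74153989 to 74161246, plus strand), the neutrophil receptor for the 3 clustered ligands, had the largest change of the 7 genes tested. It stood at 9.88, 7.71 and 9.67 normalized counts in bone marrow and at 86.9, 89.5 and 55.4 in liver. The log2 fold change was 2.93 ± 0.32 (SE, limma adjusted p = 0.018), from means of 9.08 ± 1.20 to 77.3 ± 19.0 (SD, n = 3 each), or 33 and 197 reads. Bone marrow alone lay under the filter, so that the gene was tested only through its liver level. The call was lost without bone marrow replicates 1, 2 or 3 (limma adjusted p = 0.078, 0.070 and 0.13) and without liver replicate 3 (0.11), with log2 fold changes of 2.81 to 3.15 over the 6 fits. Without both replicate 3 libraries it was 3.20 (limma adjusted p = 0.74).

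The sum of the neutrophil markers did not move with Cxcr2 in every liver library. The 11 markers, 6 of which passed the filter, had a sum of 80.8 to 134 normalized counts across bone marrow and of 97.8, 813 and 446 across liver replicates 1, 2 and 3. Liver replicate 1 held 86.9 normalized counts of Cxcr2 at a marker sum within the range of bone marrow. Single markers differed there. Lcn2 stood at 69.2 in liver replicate 1 against 33.2, 54.8 and 35.7 in bone marrow, and Ltf at 3.95 against 14.4, 19.7 and 37.2. The mature neutrophil gene Ly6g had 0 reads in all 6 libraries, and S100a9 had 0 in liver replicate 1 and 68.2 normalized counts in liver replicate 2. Cxcr1, the gene of the other receptor for such ligands, had 6 bone marrow reads and 2 liver reads. Of 4 eosinophil markers, Epx had 0 reads in bone marrow and 16.8, 102 and 55.4 normalized counts in liver, Prg2 ran from 10.3 to 24.2 and from 60.3 to 212, Prg3 overlapped (1.80 to 8.18 and 0.988 to 16.9), and Siglecf went the other way, from 2307 to 2524 down to 1080 to 1194. The 7 basophil and mast cell markers had sums of 22366 to 25552 in bone marrow and 15674 to 24142 in liver, which overlapped, but single genes went opposite ways. Prss34 stood at 193, 235 and 192 against 1243, 3701 and 2694, while Cpa3 ran from 2207 to 5073 against 493 to 1251, Fcer1a from 673 to 1239 against 128 to 354 and Tpsb2 from 61.1 to 175 against 0 to 1.20. These marker genes were singled out after their values were seen. The part of these cell types in the Cxcr2 value, and in the other results, was not tested.

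**Figure D2:**
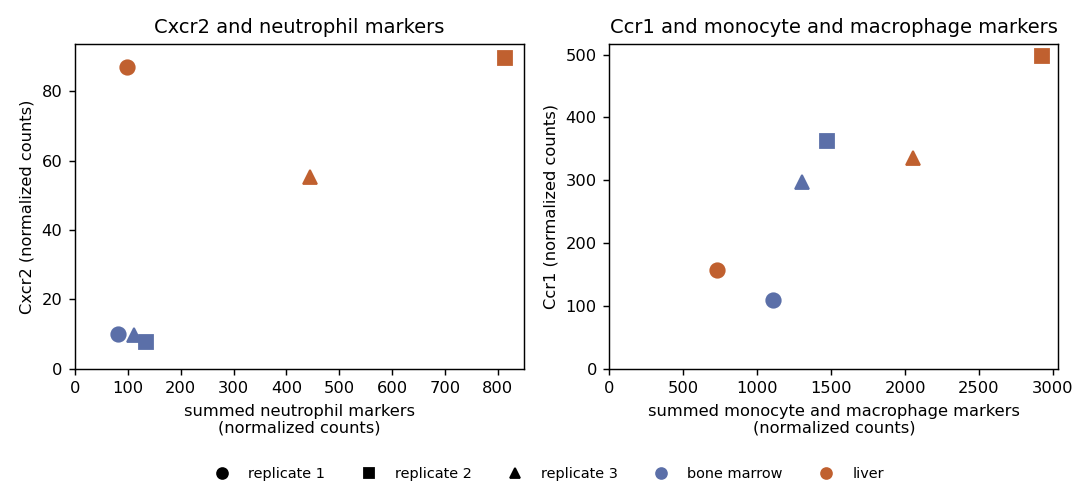
Left, Cxcr2 against the summed level of 11 neutrophil markers, and right, Ccr1 against that of 8 monocyte and macrophage markers, in normalized counts (all axes from 0), 1 point per library, coloured by tissue and shaped by replicate number. Cxcr2 is at 86.9 in liver replicate 1 and 89.5 in liver replicate 2, where the neutrophil sums are 97.8 and 813, and Ccr1 is lowest in the replicate 1 library of each tissue.

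Cx3cr1 (chromosome 9, 119901616 to 120069879, minus strand), the fractalkine receptor gene, was lower in liver. Bone marrow libraries held 377, 402 and 322 normalized counts and liver libraries 172, 202 and 213, with no overlap. The log2 fold change was -0.90 ± 0.14 (SE, limma adjusted p = 0.041), from 367 ± 41.2 to 196 ± 21.3 (SD, n = 3 each). The call was kept without liver replicate 1 (limma adjusted p = 0.033) and lost without each of the other 5 libraries in turn, with 0.16, 0.14 and 0.18 for bone marrow replicates 1, 2 and 3 and 0.066 and 0.18 for liver replicates 2 and 3. Without both replicate 3 libraries the log2 fold change was -1.06 (limma adjusted p = 0.83). Its ligand gene Cx3cl1 stood at 71.8, 44.5 and 36.4 normalized counts in bone marrow and 39.5, 52.6 and 25.3 in liver (limma adjusted p = 0.69). Exon bases of Cx3cr1 are shared with Gm33858 on the other strand, a gene without values here.

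For Cxcr4, Ccr1 and Ccr2 the tissue means differed by less than the SD of the bone marrow libraries. Cxcr4 (chromosome 1, 128588199 to 128592293, minus strand), the marrow retention receptor, was the most abundant of the 10 per length in both tissues. It held 349, 708 and 592 normalized counts in bone marrow and 381, 856 and 673 in liver. The tissues overlapped, with a log2 fold change of 0.19 ± 0.35 (SE, limma adjusted p = 0.84) and a 95% interval of -0.61 to 1.00. Without bone marrow replicate 1 or liver replicate 2 the sign turned (-0.10 and -0.06). The gene of its ligand, Cxcl12, which stromal cells make, had 9 reads, all in bone marrow.

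Ccr1 (chromosome 9, 123962124 to 123968692, minus strand) stood at 110, 362 and 297 normalized counts in bone marrow and 157, 497 and 335 in liver. Its log2 fold change was 0.38 ± 0.54 (SE, limma adjusted p = 0.79), with a 95% interval of -0.87 to 1.64, and without bone marrow replicate 1 it was -0.14. Ccr2 (chromosome 9, 124101950 to 124113557, plus strand) stood at 423, 997 and 850 in bone marrow and 370, 648 and 548 in liver, a log2 fold change of -0.48 ± 0.34 (SE, limma adjusted p = 0.55) with an interval of -1.27 to 0.30. In each tissue all 3 receptor genes were lowest in replicate 1, highest in replicate 2 and in between in replicate 3. Such a middle place of replicate 3 was common, as 43.7% of all genes tested had it in bone marrow and 50.9% in liver. The 8 monocyte and macrophage markers, 6 of which passed the filter, summed to 1104, 1474 and 1306 in bone marrow and 730, 2927 and 2051 in liver, in the same order. The part of these markers in the receptor values was not tested.

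**Figure D3:**
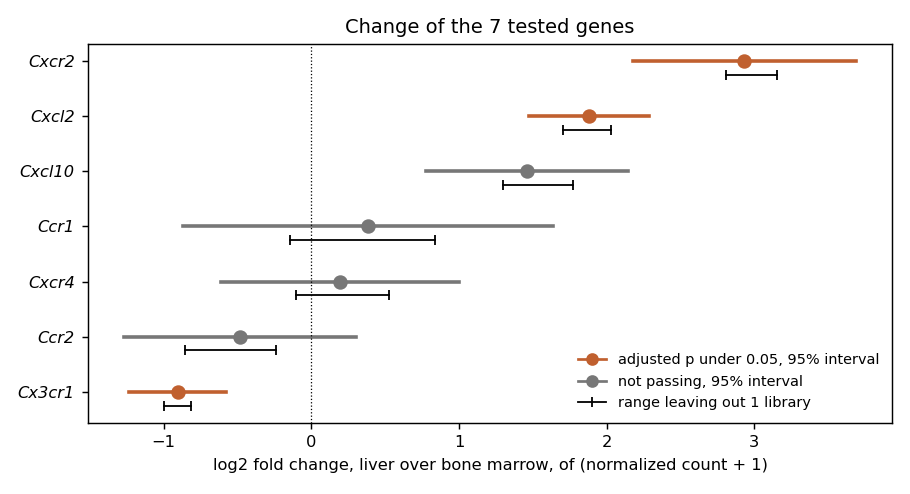
Log2 fold change of liver over bone marrow (horizontal axis) for the 7 genes tested, with limma's 95% interval and, beneath in black, the range of the estimate when 1 library is left out. The intervals of Cxcr2, Cxcl2 and Cxcl10 lie above 0 and that of Cx3cr1 below, and the estimates of Ccr1 and Cxcr4 cross 0 when a library is left out.

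Levels per kilobase of exon allowed the 10 genes to be set in order. In bone marrow Cxcr4 led with 304 ± 101 normalized counts per kilobase, followed by Ccr2 (112 ± 44.1), Ccr1 (90.4 ± 46.3), Cx3cr1 (81.5 ± 9.14) and Cxcl2 (73.1 ± 16.0; SD, n = 3 each). These 4 followers overlapped each other, while Cxcl10 (21.8 ± 2.44) lay below all of them and Cxcr2 (2.98 ± 0.39), Cxcl3, Cxcl16 and Cxcl1 lay under Cxcl10. In liver Cxcr4 (352 ± 132) and Cxcl2 (267 ± 16.6) overlapped at the top. Ccr1 (116 ± 60.1), Ccr2 (77.2 ± 20.9) and Cxcl10 (63.3 ± 20.9) overlapped next, Cx3cr1 (43.4 ± 4.73) overlapped with Cxcl10, and Cxcr2 (25.4 ± 6.24) lay below these. Cxcl2 thus moved from the fifth place to the second. Exon lengths are those of GENCODE M21, which need not be the annotation used for counting.

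The genes whose centred profile over the 6 libraries was nearest to that of Cxcl2 were Tnfrsf23, Ano7, Hist1h2bk, Morc4 and Lmna, at a root mean square difference of 0.13, 0.24, 0.28, 0.33 and 0.38 log2 units (median over all tested genes 0.99). Lmna, which encodes the nuclear lamins A and C, had a mean of 563 normalized counts (bone marrow) and of 1298 (liver). For Cxcr2 the nearest were Rnase12, Ccl6, Alox15, Tnfrsf23 and Akr1c18, at 0.41, 0.41, 0.52, 0.56 and 0.56 (median 1.51). Tnfrsf23, Ano7, Rnase12 and Alox15 had bone marrow means of 4.42, 8.56, 1.65 and 7.59 normalized counts. They thus passed the filter of 10 only through their liver level. Tnfrsf23, Ano7, Morc4 and Alox15 did not pass the test (limma adjusted p = 0.098, 0.15, 0.11 and 0.067). Values of Hist1h2bk are uncertain because similar histone genes can share reads.

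The CC ligands of Ccr1 and Ccr2 were chosen as a list with earlier results known. Of 6 tested genes 1 rose in liver (0.42% of all genes tested), 4 fell (0.594%) and 1 did not pass. Their median log2 fold change was -1.13 against -0.01 over all genes tested. The 2 ligands of CCR2 that passed the filter both fell. Ccl2 stood at 133, 168 and 125 normalized counts in bone marrow and 48.4, 27.0 and 53.0 in liver (limma adjusted p = 0.048), and Ccl7 at 62.8, 88.2 and 94.4 against 13.8, 14.2 and 10.8 (0.020). The Ccl7 values rest on 300 bone marrow reads and 33 liver reads. Ligands of CCR1 went both ways. Ccl3 fell from 3570 ± 92.8 to 2135 ± 258 and Ccl5 from 738 ± 155 to 257 ± 28.7, while Ccl6 rose from 340 ± 48.1 to 2036 ± 386 (SD, n = 3 each; limma adjusted p = 0.023, 0.018 and 0.0017). Ccl9, another CCR1 ligand of the mouse, held 7023 and 7720 (limma adjusted p = 0.75). Ccl6 alone of these kept its call without each of the 6 libraries in turn. Ccl5 kept it without bone marrow replicate 2, liver replicate 1 and liver replicate 2, Ccl3 and Ccl7 without liver replicates 1 and 2, and Ccl2 without liver replicate 1. The Ccl2 call was also lost with a mean of at least 50 (limma adjusted p = 0.051) and after thinning to equal depth (0.068). Without both replicate 3 libraries none of these 5 genes passed (limma adjusted p = 0.40 for Ccl6 and 0.83 to 0.87 for the others).

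The rest of the chemokine family was sparse. Of 12 further ligand genes of the CXC, CX3C and XC classes 4 passed the filter and 0 passed the test with limma, edgeR, DESeq2 or an unadjusted p under 0.05, and 3 (Cxcl13, Cxcl14 and Cxcl15) had no read. The platelet chemokine genes Pf4 and Ppbp lie in the cluster of Cxcl2, and neither followed it. Pf4 stood at 9734, 6160 and 7789 normalized counts in bone marrow and 12380, 2711 and 6882 in liver (log2 fold change -0.34, limma adjusted p = 0.80), and Ppbp at 337, 283 and 268 against 383, 66.8 and 191 (-0.79, limma adjusted p = 0.55). Of 18 further chemokine and atypical receptor genes 3 passed the filter (Ccr4, Ackr4 and Ccrl2) and 0 passed the test by any of the same 4 counts. Cxcr3 and Cxcr6, the receptor genes for the CXCL10 and CXCL16 proteins, had 1 and 5 reads in bone marrow and 0 and 2 in liver.

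Each of the lists linked to the promoter motifs held 1 gene past the test, which 1.01% of all genes tested passed. Of 19 tested NF-kB pathway and feedback genes Tnf rose, from 250, 240 and 279 in bone marrow to 431, 488 and 474 in liver (limma adjusted p = 0.027), and 18 did not pass, with a median log2 fold change of -0.02. In that list 10 genes had an unadjusted p under 0.05 (15.7% of all genes tested), and DESeq2 called 4 (4.35% of all genes). Tnf kept its call without liver replicate 1 and lost it without each of the other 5 libraries. The inhibitor gene Nfkbia (2486 and 3152, limma adjusted p = 0.13) lay wholly higher in liver. So did the mRNA decay factor gene Zfp36 (2695 and 4007, 0.099), Ptgs2 and Myd88. Relb (306 and 196, limma adjusted p = 0.086), Nfkb2, Nfkbie, Il6 and Icam1 lay wholly lower in liver, and Nfkb1 stood at 7157 and 7210. Of all genes tested 22.3% had non-overlapping tissues. In the list 7 log2 fold changes were positive and 12 negative. Of 13 tested interferon-inducible genes 12 had a negative log2 fold change (median -0.31). Gbp2, a guanylate-binding protein gene, fell from 1328 ± 44.0 to 827 ± 27.3 (SD, n = 3 each; limma adjusted p = 0.013), and 12 did not pass. Of these 13 genes 4 had an unadjusted p under 0.05, and DESeq2 called 1. Gbp2 kept its call without liver replicate 1 or 2 and lost it without each of the other 4. Irf1, an interferon-induced transcription factor gene, held 1279 and 1028 (log2 fold change -0.31, limma adjusted p = 0.29). Cxcl10, at a log2 fold change of 1.46, thus lay on the other side of 0 from nearly all of that list.

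**Figure D4:**
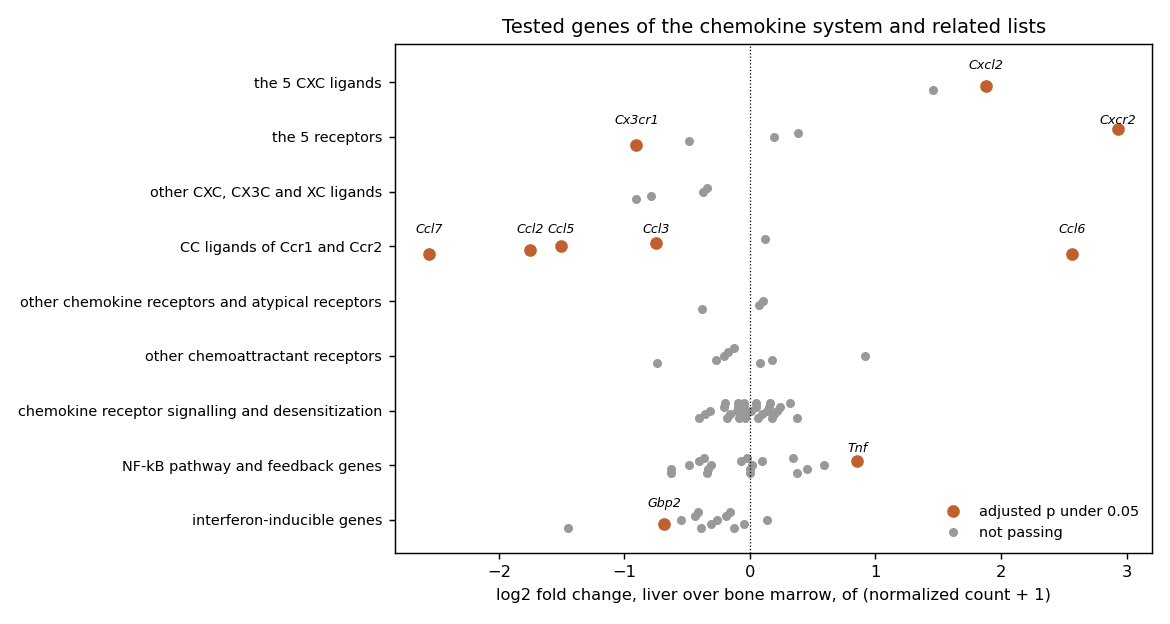
Log2 fold change of liver over bone marrow (horizontal axis) for each tested gene of the 10 described here and of related lists (rows), with genes at an adjusted p under 0.05 in orange and named. Cxcl2, Cxcr2, Ccl6 and Tnf are the named genes to the right of 0, and Cx3cr1, Ccl7, Ccl2, Ccl5, Ccl3 and Gbp2 those to the left.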

How the data were processed

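The deposited values are a normalized signal, reads per gene scaled by the authors with 1 DESeq2 size factor for each library, as the table's name and the submitters' processing notes give it. STAR 2.6.0c, Trimmomatic 0.36, bcl2fastq 2.19.0, R 3.4.1 and DESeq2 1.16.1 are the tools in those notes. Counter, build and annotation: not given in the sources used here. Within 0.01, 100% of values were multiples of a library's smallest, which gave back whole reads. A read equalled 0.744 to 0.898 normalized counts (bone marrow) or 0.988 to 1.42 (liver).

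Tissue was tested two-sided by limma 3.58.1 (R 4.3.3, trended variance) on log2(normalized count + 1) in the 14298 genes averaging 10 or more, and p-values were adjusted over these by Benjamini-Hochberg. This scale understates the change of low genes. The fit was tested on simulated data that held no effect of replicate number. It called 22%, 48%, 86% and 92% of genes changed 1.5-, 2-, 4- and 8-fold, and 7 of its 131 calls were false. A gene that did not pass may thus still differ. The genes, lists and tests were chosen with earlier results of these data known. Named besides the 10 genes are list genes that passed, up to 3 abundant others per list, and the 5 genes nearest in profile to Cxcl2 and to Cxcr2. Cxcl12, Cxcr1, Cxcr3, Cxcr6, Cxcl13, Cxcl14, Cxcl15, C5ar1, Relb, Nfkb2, Nfkbie, Il6, Icam1, Ptgs2 and Myd88 were added after their values were seen. Alternatives used edgeR 4.0.16 and DESeq2 1.42.0 on recovered reads, other scalings, filters and pseudocounts, and fewer libraries. Positions and exon lengths come from GENCODE M21 (GRCm38), matched by symbol. Floors of 3 reads cover counting error only. Figures were drawn with matplotlib 3.10.9.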

Additional observations from a re-analysis of the deposited data

How the results depend on the processing

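The number of differing genes depended on the libraries and the tool. Against 145 of all genes, DESeq2 gave 622, and leaving out 1 library gave 6 to 427. Without both replicate 3 libraries it was 2, without both replicate 1 libraries 222 and without both replicate 2 libraries 22, the replicate 1 and replicate 2 settings being chosen after seeing the data. Of the 10 chemokine genes 3 differed, 0 to 3 when 1 library was left out, 0 without both replicate 3 libraries, 1 without both replicate 2 libraries. Of the 86 tested genes in the related lists 7 differed, 11 with DESeq2, 1 to 8 when 1 library was left out, 0 without both replicate 3 libraries and 2 without both replicate 2 libraries. Cxcr4 turned to -0.10 without bone marrow replicate 1 and -0.06 without liver replicate 2, and Ccr1 to -0.14 without bone marrow replicate 1. Without any 1 library Cxcr4 ran from -0.10 to 0.53 and Ccr1 from -0.14 to 0.84. With both libraries of number 1, 2 or 3 left out, Cxcr4 was 0.23, 0.16 and 0.20 and Ccr1 0.32, 0.34 and 0.49. The ratio of liver to bone marrow at the same number was 1.09, 1.21 and 1.14 for Cxcr4. It was 1.43, 1.37 and 1.13 for Ccr1 and 0.874, 0.650 and 0.645 for Ccr2. The cause of the turned signs was not tested. Cxcl2, Cxcr2 and Cx3cr1 kept their calls with edgeR, DESeq2, thinning to equal depth, TMM or quantile scaling, no filter and a pseudocount of 0.5 or 10. With a mean of at least 50 Cxcr2 was not tested. Cxcl1, Cxcl3 and Cxcl16 rest on 0, 20 and 16 reads in bone marrow and 5, 36 and 17 in liver and did not pass without the filter.

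Samples of the 2 tissues share replicate numbers. Deviations from the tissue mean correlated at 0.44, 0.40 and 0.06 for replicates 1, 2 and 3 across genes. Liver replicate 1 with bone marrow replicate 2 gave -0.44, and liver replicate 2 with bone marrow replicate 1 gave -0.38. Liver replicate 3 correlated best with bone marrow replicate 2 (0.15). The sex-linked transcripts of the tissues matched by number. Replicate 3 lay between the others on those transcripts, so its correlations do not decide whether the numbers mark pairs. No label names pairs, and the main fit used none. With the replicate block 525 of all genes, 4 of the 10 chemokine genes (Cxcl10 passing as well, adjusted p = 0.040 by limma) and 14 of the list genes differed. With the block and without both replicate 3 libraries these counts were 15, 0 and 1.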

Other observations

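Receptors for other chemoattractants and the proteins that act downstream of chemokine receptors showed no gene past the test. Of 12 receptor genes for complement, formyl peptides, lipids and related signals 8 were tested and 0 passed with limma, edgeR or DESeq2, and 1 had an unadjusted p under 0.05. C3ar1, a complement receptor gene, held 920, 1110 and 950 normalized counts (bone marrow) and 409, 863 and 591 (liver), without overlap (log2 fold change -0.74, limma adjusted p = 0.21). C5ar1, the other complement receptor gene, stood at 47.6, 114 and 128 against 92.9, 244 and 210 (0.92, limma adjusted p = 0.42). The leukotriene B4 receptor gene Ltb4r1 (1046 and 960) and the sphingosine phosphate receptor gene S1pr1 (282 and 318) had an adjusted p of 0.60 and 0.55 (limma). Fpr1, the formyl peptide receptor gene of neutrophils, had 0 reads.

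Of 31 tested genes for G proteins, arrestins, receptor kinases, RGS proteins and Rac signalling 0 passed with limma or edgeR, 1 passed with DESeq2 and 5 had an unadjusted p under 0.05, with log2 fold changes between -0.41 and 0.38 and a median of -0.04. Gnai2, the inhibitory G protein subunit gene, had a mean of 9780 normalized counts (bone marrow) and 10247 (liver), and Rac2, the GTPase gene of blood cells, at 9560 and 8917. Cdc42, a GTPase gene of cell polarity, had non-overlapping tissues (8304 and 9649, limma adjusted p = 0.11).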
